A study of Mus musculus with 21 samples.

Results

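The endothelial genes examined here are 34 genes whose products mark or serve the cells that line blood vessels, measured in RNA from 3 populations of macrophages sorted from mouse kidneys. They were taken by symbol from 34236 gene names counted in 21 libraries, and all 34 were found. By role they fall into 14 junction and surface proteins, 8 receptors, 4 transcription factors, 4 enzymes and intracellular proteins and 4 secreted proteins. The populations came from F4/80+CD64+ cells and were separated by CD11b and CD11c: CD11chiMϕ (high for both), CD11cloMϕ (high for CD11b, low to negative for CD11c) and kidney-resident macrophages (KRM, intermediate for both). All mice were C57BL/6J males aged 24 weeks, with a flow sort time of 5 h, and the cells were not cultured or treated after sorting. The kidneys were from Sham-operated mice or from mice with renal artery stenosis (RAS), in which a cuff narrows the artery of 1 kidney. The groups were CD11chiMϕ Sham (n = 3) and RAS (n = 4), CD11cloMϕ Sham (n = 3) and RAS (n = 4), and KRM Sham (n = 4) and RAS (n = 3). Nothing in the labels ties a library to 1 animal, so p-values measure the spread between libraries, which may be partly technical. Cells of T, B, NK, erythroid and granulocyte lineages were gated out, and the macrophages were taken from live cells positive for CD45, the pan-leukocyte marker, which endothelial and tubular cells lack. An endothelial marker is not named among those gated out.

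Endothelial cells hold to each other through VE-cadherin (Cdh5) and tight junctions, and in the kidney they form fenestrated peritubular and glomerular capillaries whose pores are spanned by the Plvap protein. Their identity is set by ETS factors such as Erg and by the SoxF factors Sox7, Sox17 and Sox18, and angiopoietins acting on Tek keep the vessel wall quiet. Some genes of the list are also used outside endothelium: macrophages can make Cd93, Eng and Calcrl, platelets and their precursors make Vwf, lymphocytes and many other cells carry Ly6a, and podocytes make Podxl. Such genes therefore do not by themselves mark an endothelial cell in a macrophage library.

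The libraries held 6891177 to 18592427 estimated counts, and each replicate pair differed by more than counting error. The markers of the sorted cells were present in all 21, with a summed level of 8 macrophage genes between 2230 and 11011 CPM (each count as a share of the library's scaled total, with TMM factors over all libraries). A few libraries stood apart in the endothelial genes and in markers of other kidney cells. They were KRM RAS replicates 2 and 3, CD11chiMϕ Sham replicate 3 and CD11cloMϕ RAS replicates 3 and 4. The library labelled KRM RAS replicate 1 did not match its own column in the second deposited table: r across the genes shared by the tables was 0.689, against 0.911 to 0.946 for the other 20 libraries. The column it matched best was that of KRM Sham replicate 4 (r = 0.888). For the main tests of the endothelial genes examined here, results that rest on these libraries are given with and without them. The other gene lists were tested with all libraries only.

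Upstream sequence is shown for 4 members, chosen because Eng and She differed between populations in Sham kidneys in opposite directions, and because Tek and Cldn5 were close to 0 in KRM Sham but not in KRM RAS replicates 2 and 3. The bases are the 250 before the RefSeq start site on GRCm38.p6, all on the + strand, and overlap no annotated exon. Capitals mark GGAAG, a form of the ETS core, on either strand, read as CTTCC on the other strand.

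Eng (chr2:32646345-32646594): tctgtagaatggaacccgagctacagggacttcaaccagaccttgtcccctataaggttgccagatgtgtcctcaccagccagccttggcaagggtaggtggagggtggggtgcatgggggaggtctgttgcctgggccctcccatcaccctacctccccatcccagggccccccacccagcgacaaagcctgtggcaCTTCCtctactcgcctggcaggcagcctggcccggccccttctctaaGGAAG
She (chr3:89831120-89831369): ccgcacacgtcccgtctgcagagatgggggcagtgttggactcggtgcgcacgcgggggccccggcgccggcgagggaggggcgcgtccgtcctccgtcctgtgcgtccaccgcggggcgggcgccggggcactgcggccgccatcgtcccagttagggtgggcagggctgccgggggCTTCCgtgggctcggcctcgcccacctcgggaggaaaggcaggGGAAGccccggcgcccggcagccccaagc
Tek (chr4:94739039-94739288): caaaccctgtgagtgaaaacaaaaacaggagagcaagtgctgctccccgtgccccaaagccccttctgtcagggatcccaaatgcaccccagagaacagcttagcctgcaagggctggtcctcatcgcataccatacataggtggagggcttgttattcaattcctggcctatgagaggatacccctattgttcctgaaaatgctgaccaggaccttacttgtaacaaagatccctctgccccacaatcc
Cldn5 (chr16:18776597-18776846): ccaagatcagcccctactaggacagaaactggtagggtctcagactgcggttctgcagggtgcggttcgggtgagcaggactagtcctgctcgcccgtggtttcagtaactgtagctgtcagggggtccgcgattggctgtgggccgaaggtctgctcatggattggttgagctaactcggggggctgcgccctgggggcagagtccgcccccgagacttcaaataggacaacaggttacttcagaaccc

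Eng and She each held 2 copies of GGAAG, and Tek and Cldn5 held 0 in this window. Other forms of the ETS core were not searched, so 0 copies does not mean that no ETS site is present. Of the 34 members 19 were in the RefSeq table, with 23 start sites. Of those windows 16 (69.6%) held GGAAG, against 64.1% of 32841 windows over all genes. The SoxF core ACAAT, searched on both strands (ATTGT on the other), was in 8 (34.8%), against 27.7% of all windows. Tek held 2 copies of it. A match describes these letters only.

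Summed over the 34 genes, the endothelial level was highest in KRM RAS replicates 2 and 3, at 1680 and 1379 CPM, while KRM RAS replicate 1 had 278 CPM. The 4 KRM Sham libraries had 229, 234, 245 and 252 CPM, so in this sum replicate 1 lay close to Sham and the other 2 lay far above. The CD11chiMϕ sums were 191, 207 and 780 CPM in Sham and 203, 237, 201 and 221 CPM in RAS. The CD11cloMϕ sums were 173, 146 and 258 CPM in Sham and 138, 239, 575 and 640 CPM in RAS. Thus 1 Sham library of CD11chiMϕ was above all of its RAS libraries, and 2 RAS libraries of CD11cloMϕ were above all of its Sham libraries. In bulk RNA, fewer cells of a type and less RNA per cell cannot be told apart.

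**Figure D1:**
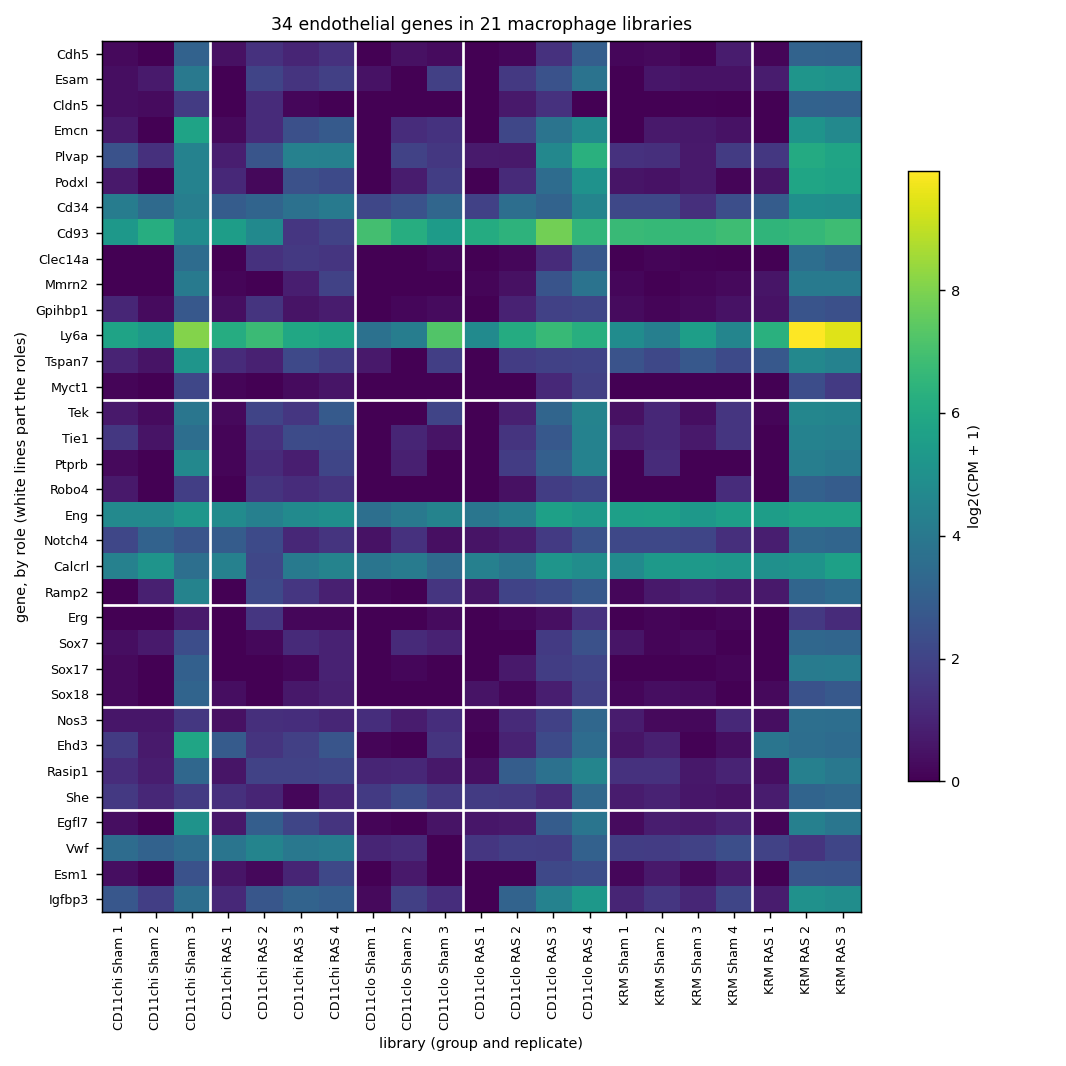
Level of the 34 endothelial genes, as log2(CPM + 1), in the 21 libraries (columns, by group and replicate), with genes in rows ordered by role and white lines between roles and groups. Cd93, Eng, Calcrl and Ly6a are among the genes detected in all 21 libraries, Cd93 at its lowest in CD11chi RAS replicates 3 and 4. Most other genes are highest in CD11chi Sham replicate 3, CD11clo RAS replicates 3 and 4 and KRM RAS replicates 2 and 3.

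The genes expressed at 1 CPM or more followed the same split. All 34 reached 1 CPM in KRM RAS replicates 2 and 3, 33 did in CD11chiMϕ Sham replicate 3, and 32 and 33 did in CD11cloMϕ RAS replicates 3 and 4. The other libraries had 7 to 26 of them, with 9 in KRM RAS replicate 1 and 9 to 16 in KRM Sham. A narrower sum took the 25 genes not set apart as also known from other cells, though these need not be confined to endothelium. It was 11.4, 16.2, 9.49 and 16.6 CPM in KRM Sham and 20.3, 379 and 337 CPM in KRM RAS. The large part of the full sum in most libraries therefore came from the 9 genes that other cells also use (Cd93, Eng, Ly6a, Cd34, Podxl, Tspan7, Vwf, Igfbp3 and Calcrl). Ly6a alone made up 58.1% and 50.4% of the sum in KRM RAS replicates 2 and 3.

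Markers of other kidney cells were raised in the libraries with high endothelial sums, but also in some without. A list of 15 distal nephron and collecting duct genes summed to 155, 6459 and 4868 CPM in KRM RAS and to 14.2, 15, 244 and 15.4 CPM in KRM Sham. Aqp2, the water channel of the collecting duct, was at 0.297, 627 and 440 CPM in KRM RAS and at 0.0502 CPM or less in KRM Sham. A list of 14 stroma and pericyte genes summed to 47.8, 772 and 813 CPM in KRM RAS, against 22.3 to 41.7 CPM in KRM Sham. The macrophage list was lower in the same 2 libraries, at 5007 and 6110 CPM, against 8024 CPM in KRM RAS replicate 1 and 9162 to 11011 CPM in KRM Sham. In CD11chiMϕ Sham replicate 3 the distal nephron list was at 2034 CPM and a list of 15 proximal tubule genes at 26396 CPM, against 14.5 and 19.9 CPM and 605 and 760 CPM in the other 2 Sham libraries, and the macrophage list was at 2230 CPM against 5486 and 7031 CPM. CD11cloMϕ RAS replicates 3 and 4 had 357 and 254 CPM of distal nephron genes, against 5.38 and 29.7 CPM in replicates 1 and 2, with a macrophage list at 9914 and 6543 CPM against 5592 and 5470 CPM. In CD11cloMϕ Sham the distal nephron list was at 18, 7.52 and 708 CPM. Replicate 3 of that group, the highest of these, also had 9125 CPM of proximal tubule genes, with 20.5 CPM of the 25 endothelial genes not set apart. Its tubular sums were above those of RAS replicates 3 and 4, and its endothelial sum was the highest of its group but below theirs. CD11cloMϕ RAS replicate 2 had the highest stroma sum of its group, 456 CPM, with 29.6 CPM of the 25 genes. Proximal tubule genes in KRM RAS were highest in replicate 1, at 2719 CPM against 1601 and 1500 CPM. T and NK cell genes were also higher in KRM RAS, most in replicate 1. Il2rb, an interleukin receptor chain, had 131, 20.3 and 21.4 CPM in RAS and 0.828, 0.822, 1.0 and 0.202 CPM in Sham. Cd4 made up most of the Sham sum of this list and was lower in RAS, at 54.9, 20.7 and 26.1 CPM against 103, 104, 100 and 74.2 CPM. Erythroid genes summed to 1199, 580 and 521 CPM in KRM RAS and to 139 to 317 CPM in KRM Sham. The part of these cells in the endothelial values was not tested.

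**Figure D2:**
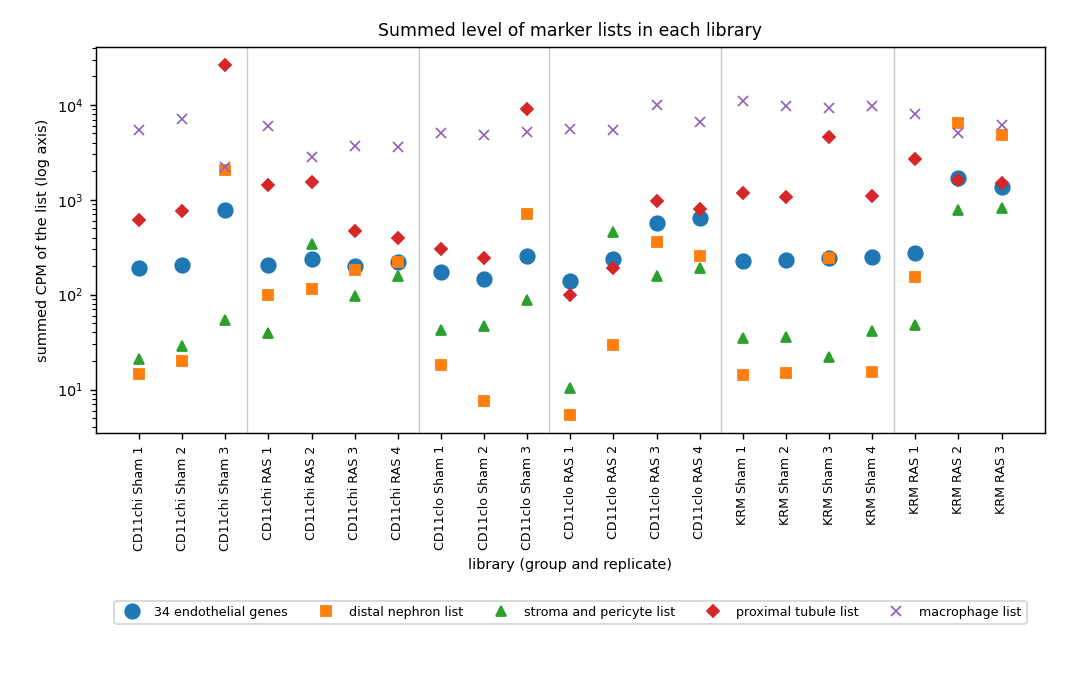
Summed CPM (log axis) of the 34 endothelial genes and of 4 other marker lists in each library, with vertical lines between groups. In KRM RAS replicates 2 and 3 the endothelial, distal nephron and stroma sums are all above those of KRM Sham, and the macrophage sum is below.

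The first comparison asked whether KRM of stenotic kidneys differed from KRM of Sham kidneys. Of the 34 genes 18 passed the filter on low counts and were tested, and 5 of them were higher in RAS at an adjusted p under 0.05 in edgeR (0 lower): Plvap, Cd34, Ly6a, Tspan7 and Ehd3. Over all 12852 genes tested, 9.70% passed. The median log2 fold change was 3.52 over the 18 genes and 0.02 over all genes tested, and 16 of the 18 were above 0. A gene whose counts lay in the 2 high RAS libraries alone often failed the filter, so 16 genes, Cdh5 among them, had no test here. At an unadjusted p under 0.05, 12 of the 18 differed, against 34% of all genes tested.

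Plvap, which spans the pores of fenestrated endothelium (chromosome 8, 71497765 to 71511752, minus strand, GRCm38), had 2.08, 66.3 and 54.0 CPM in the KRM RAS libraries and 1.66, 1.54, 0.603 and 2.33 CPM in KRM Sham. The 2 high libraries made the difference and replicate 1 fell within the Sham range, and the fitted log2 fold change was 4.79 ± 1.01 (SE, adjusted p = 0.0333). Here and below the SE is the size of the log2 fold change divided by the square root of the F statistic.
Ly6a, the surface protein Sca-1 (chromosome 15, 74994877 to 74998031, minus strand), had 77.0, 976 and 695 CPM in RAS and 27.4, 18.5, 46.4 and 21.8 CPM in Sham. All 3 RAS libraries were above the Sham libraries, 2 of them by far more than the third, and the log2 fold change was 4.36 ± 0.772 (SE, adjusted p = 0.0254). Ly6a belongs to a family of near-identical neighbours, so reads may be split between copies.
Cd34, a sialomucin of endothelium and progenitors (chromosome 1, 194938819 to 194961279, plus strand), had 6.33, 29.8 and 27.9 CPM in RAS and 3.43, 3.49, 1.56 and 4.25 CPM in Sham. The groups did not overlap, and the log2 fold change was 2.78 ± 0.560 (SE, adjusted p = 0.0307).
Tspan7, a tetraspanin (chromosome X, 10485158 to 10596605, plus strand), had 5.74, 24.1 and 20 CPM in RAS and 4.85, 3.39, 5.73 and 3.64 CPM in Sham. Replicate 1 was level with the highest Sham library, and the log2 fold change was 1.93 ± 0.464 (SE, adjusted p = 0.0431).
Ehd3, a membrane-recycling protein known from glomerular endothelium (chromosome 17, 73804134 to 73832094, plus strand), differed from the other 4. It had 13.5, 11.1 and 10 CPM in RAS and 0.473, 0.822, 0.0502 and 0.303 CPM in Sham. Its 3 RAS libraries were alike, replicate 1 included, but it passed the filter only through them, which sets its direction. The log2 fold change was 4.90 ± 0.671 (SE, adjusted p = 0.0157).

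These calls depended on single libraries. Without KRM RAS replicate 2 or 3, or without KRM Sham replicate 1 or 4, 0 of the 34 genes passed in edgeR, while 0.204 to 0.338% of all genes tested did and the log2 fold change of Plvap was 4.23 to 5.08. With both RAS replicates 2 and 3 left out the median log2 fold change of the 15 tested genes was -0.21. Ehd3 alone kept its size when both were left out, at 5.10 (adjusted p = 0.0523 in edgeR), where the lone RAS library is assumed to vary like the Sham libraries. Without KRM RAS replicate 1 all 34 genes were tested and 30 passed, all higher, while 50.2% of all genes tested passed. With 2 RAS libraries left, genes such as Sox17, Cldn5, Myct1, Podxl, Esam and Nos3 passed the filter only through the group where they are high, so for them the direction was set by the filter. Its 4 exceptions were Cd93, Eng, Calcrl and Vwf. In that fit Podxl rose by 6.92 ± 0.333, Esam by 6.52 ± 0.463, Ly6a by 4.82 ± 0.352, Igfbp3 by 4.00 ± 0.407 and Nos3 by 4.34 ± 0.659 on the log2 scale (SE, edgeR adjusted p from 1.01e-05 to 0.00139).

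**Figure D3:**
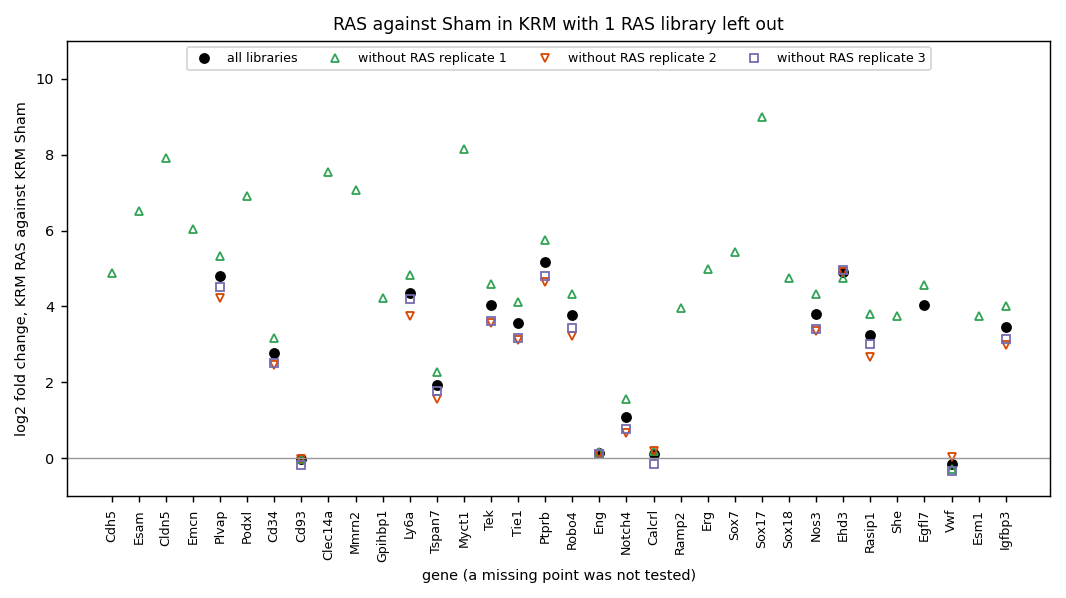
Log2 fold change of each endothelial gene (KRM RAS against KRM Sham) with all libraries and with each RAS library left out in turn; a missing point was not tested. Without replicate 1 all 34 genes have a value and 30 of them pass, while Cd93, Eng, Calcrl and Vwf stay near 0 under each setting.

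The genes of the endothelial junction and surface that were not called in KRM showed the same 2 libraries. Esam, a junctional adhesion molecule (chromosome 9, 37528078 to 37538319, plus strand), had 0.692, 35.4 and 32.2 CPM in RAS and 0, 0.514, 0.402 and 0.405 CPM in Sham. Podxl, podocalyxin (chromosome 6, 31519488 to 31563981, minus strand), had 0.495, 56.2 and 52.0 CPM in RAS and 0.473, 0.411, 0.603 and 0.101 CPM in Sham. In RAS replicate 1 Podxl was within the Sham range and Esam was just above it. The endothelial mucin Emcn had 0, 33.9 and 24.5 CPM, VE-cadherin (Cdh5) 0.0989, 7.92 and 7.82 CPM and the tight-junction protein Cldn5 0, 7.83 and 7.44 CPM in RAS. The remaining genes of this role other than Cd93, namely Clec14a, its ligand Mmrn2, Gpihbp1, which holds lipoprotein lipase on capillaries, and Myct1, had 0 to 0.495 CPM in RAS replicate 1 and 2.22 to 16.1 CPM in replicates 2 and 3. Gene for gene, KRM RAS replicates 2 and 3 exceeded all 4 Sham libraries in 31 and 33 of the 34 genes, where over all counted genes 40.5% and 38.6% did, and replicate 1 did so in 6 genes, where 22.2% of all counted genes did.

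Receptors divided into 2 kinds. Tek and Tie1, the angiopoietin receptor and its partner, had 0.0989, 22.5 and 21.6 CPM and 0, 20 and 19.3 CPM in KRM RAS, with unadjusted p = 0.0144 and 0.0226 in edgeR and adjusted p = 0.0776 and 0.0962. Ptprb, the phosphatase that acts on Tek, had 0, 18 and 16.2 CPM. Notch4, a Notch receptor of arteries, had 0.791, 9.21 and 8.40 CPM in RAS and 3.43, 3.49, 3.21 and 1.52 CPM in Sham. Robo4, which steadies vessels, and Ramp2 had 0 and 0.593 CPM in replicate 1 and 6.47 to 10.2 CPM in the other 2. Eng and Calcrl, by contrast, had similar levels in every KRM library. Eng, the TGF-β co-receptor endoglin (chromosome 2, 32646595 to 32682669, plus strand), had 44.9, 52.4 and 52.1 CPM in RAS and 47.7, 48.6, 38.3 and 47.9 CPM in Sham. Its log2 fold change was 0.15 ± 0.131 (SE, edgeR adjusted p = 0.433). Calcrl, the receptor that binds adrenomedullin together with Ramp2 (chromosome 2, 84330626 to 84425411, minus strand), had 30.6, 33.2 and 49.5 CPM in RAS and 26.1, 39.1, 40.8 and 36.2 CPM in Sham, a log2 fold change of 0.11 ± 0.223 (SE, edgeR adjusted p = 0.751). Calcrl was thus abundant in libraries where its partner Ramp2 was below 1 CPM.

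The 4 transcription factors were among the clearest cases of the split. Sox17 had 0, 16.5 and 17.1 CPM in KRM RAS and 0, 0, 0 and 0.101 CPM in KRM Sham. Sox7 had 0, 9.02 and 8.50 CPM and Sox18 0.198, 4.70 and 5.89 CPM in RAS. Erg, the ETS factor, stayed at or below 2.12 CPM in all libraries, and was at 0, 2.12 and 1.35 CPM in KRM RAS. None of the 4 passed the filter in this comparison, and a count of 0 allows up to 3 counts.

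Among enzymes and secreted proteins, Nos3, the endothelial nitric oxide synthase, had 0.297, 11.5 and 11 CPM in KRM RAS and 0.710, 0.205, 0.151 and 1.21 CPM in Sham (edgeR adjusted p = 0.0677). Rasip1, needed for vessel lumens, had 0.297, 19.2 and 14.8 CPM in RAS, and She had 0.692, 8.10 and 9.37 CPM. Part of the exons of Nos3, Rasip1, Ramp2, Sox17 and Egfl7 overlaps other genes, and the library kit does not mark strand, so their counts are uncertain to that extent. Igfbp3, which binds insulin-like growth factors (chromosome 11, 7206086 to 7213923, minus strand), had 0.692, 31.7 and 28 CPM in RAS and 1.06, 1.95, 1.11 and 3.24 CPM in Sham (edgeR adjusted p = 0.0646). Egfl7, a secreted protein of the vessel wall, had 0.0989, 18.8 and 14 CPM, and Esm1 had 0, 5.16 and 5.02 CPM in RAS. Vwf did not follow them, with 2.87, 1.84 and 3.19 CPM in KRM RAS and 2.48, 2.36, 2.86 and 4.25 CPM in Sham, a log2 fold change of -0.16 ± 0.372 (SE, edgeR adjusted p = 0.786).

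A second list of 34 other endothelial genes was set beside these. Of its 19 tested genes 8 rose and 1 fell in KRM of RAS kidneys, with a median log2 fold change of 3.14. Of its 4 genes with the highest mean CPM over the KRM libraries, Gpr116, an adhesion G-protein-coupled receptor, rose by 8.45 ± 1.49 on the log2 scale (SE, edgeR adjusted p = 0.0251), with 1.38, 125 and 117 CPM in RAS and 0 to 0.405 CPM in Sham, so it passed the filter only through RAS. S1pr1, a receptor for sphingosine-1-phosphate, rose by 0.94 ± 0.160 (SE, edgeR adjusted p = 0.0242). Nostrin, which binds the endothelial nitric oxide synthase, fell by 0.96 ± 0.165 on the log2 scale (SE, edgeR adjusted p = 0.0242), and Ece1, which cleaves big endothelin, had a log2 fold change of 0.60 ± 0.197 (SE, edgeR adjusted p = 0.0822). The distal nephron list had 8 of 11 tested genes higher and the stroma list 6 of 9 higher in the same comparison, the T and NK cell list 11 higher and 1 lower of 12, and the erythroid list 4 of 5 higher (Slc4a1 is in both the distal nephron and the erythroid list), where 9.70% of all genes tested passed. Many of the T and NK cell genes, such as Il2rb and Lck, passed the filter only through RAS libraries. So did some called genes of the second endothelial, distal nephron (Slc4a1 among them) and stroma lists. The filter sets the direction of those genes, and so in part these counts and the median of 3.14. The 15 proximal tubule genes had a median log2 fold change of 0.05. These lists were tested with all libraries only, so how far their calls rest on single KRM RAS libraries was not tested. Without KRM RAS replicate 2, 0.216% of all genes tested passed in edgeR, and without replicate 3, 0.246% did.

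**Figure D4:**
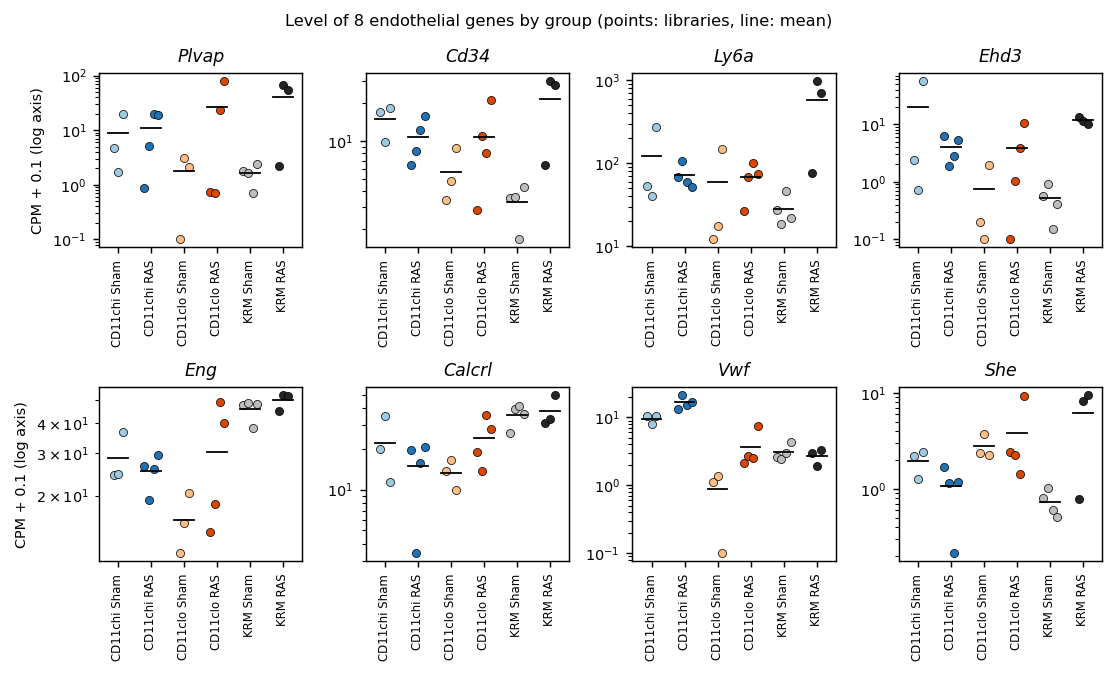
Level of 8 endothelial genes in the 6 groups, as CPM + 0.1 on log axes that differ between panels; each point is a library and the line is the group mean. Plvap, Cd34 and Ly6a each have 2 KRM RAS libraries far above the other KRM libraries. For Cd34, Ly6a and Ehd3 all 3 KRM RAS libraries are above KRM Sham, and Eng, Calcrl and Vwf do not separate KRM RAS from KRM Sham.

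In CD11cloMϕ, RAS against Sham gave no call among the 22 tested genes in edgeR, and 0% of all genes tested passed. The 22 log2 fold changes were above 0, with a median of 2.19 against -0.02 over all genes tested. Some of these genes, Ptprb and Tie1 among them, passed the filter only through RAS libraries where they are high, so the filter in part sets this direction and median. At an unadjusted p under 0.05, 3 of the 22 (Ptprb, Calcrl and Rasip1) were higher, against 8.96% of all genes tested. DESeq2 called 0 of the 22 and 0.870% of all genes. Plvap had 0.633, 0.592, 23.6 and 79.1 CPM in the RAS libraries and 0, 2.94 and 2.05 CPM in Sham. Podxl had 0, 1.30, 10.4 and 32.5 CPM in RAS and 0, 0.705 and 2.50 CPM in Sham. For both genes replicates 3 and 4 were high and replicates 1 and 2 were within or below the Sham range. Rasip1 had 0.316, 6.63, 11.9 and 21.8 CPM in RAS and 1.03, 1.17 and 0.569 CPM in Sham, a log2 fold change of 3.45 ± 1.14 (SE, edgeR adjusted p = 0.553). Calcrl had 18.9, 13.7, 35.1 and 27.9 CPM in RAS and 13.5, 16.3 and 9.90 CPM in Sham, a log2 fold change of 0.86 ± 0.356 (SE, edgeR adjusted p = 0.553). Without RAS replicates 3 and 4 the median over the 16 tested genes was 0.08, and 0 passed.

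Cd93, a lectin-like receptor of endothelium and myeloid cells (chromosome 2, 148436640 to 148443563, minus strand), was at 69.0, 83.7, 225 and 92.3 CPM in CD11cloMϕ RAS and at 125, 71.9 and 43.2 CPM in Sham. In KRM it was even, at 89.3, 96.1 and 115 CPM in RAS and 105, 99.7, 98.5 and 114 CPM in Sham. CD11chiMϕ had less of it, with 37.9, 71.0 and 27.6 CPM in Sham and 45.5, 24.9, 1.94 and 2.84 CPM in RAS. The 2 lowest values of Cd93 in all 21 libraries were thus CD11chiMϕ RAS replicates 3 and 4, and the log2 fold change in CD11chiMϕ was -1.29 ± 0.982 (SE, edgeR adjusted p = 0.644).

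In CD11chiMϕ, RAS against Sham gave 0 calls among 26 tested genes in edgeR, with 0% of all genes called, and 0 among the genes DESeq2 tested, with 1.48% called. The median log2 fold change was -1.0, against -0.09 over all genes tested. Without Sham replicate 3 it was 1.26 and again 0 genes passed, so the sign of the median rested on that library. Emcn showed it most plainly, with 0.605, 0 and 52.7 CPM in Sham and 0.190, 1.35, 4.44 and 6.04 CPM in RAS. Ehd3 had 2.32, 0.632 and 56.0 CPM in Sham and 6.17, 1.80, 2.73 and 5.21 CPM in RAS. Vwf, the clotting protein that endothelium stores and secretes (chromosome 6, 125546774 to 125686679, plus strand), was the 1 gene with an unadjusted p under 0.05, against 9.79% of all genes tested. It had 13.4, 21.2, 14.9 and 16.8 CPM in RAS and 10.4, 7.79 and 10.4 CPM in Sham, so the groups did not overlap, and the log2 fold change was 0.76 ± 0.320 (SE, edgeR adjusted p = 0.508).

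The difference between the responses of KRM and CD11chiMϕ to stenosis was tested in 1 fit of their 4 groups. All 34 genes were tested and 0 passed adjustment in edgeR, as did 0% of all genes. At an unadjusted p under 0.05, 27 differed (26 with the larger response in KRM, Vwf the other way), against 21.2% of all genes tested. The median difference in log2 fold change was 4.93, against 0.09 over all genes, and was 2.17 without CD11chiMϕ Sham replicate 3. Without that library 8 of the 34 had an unadjusted p under 0.05 in place of 27, and the share over all genes was not counted. DESeq2 called 14 of the 30 genes for which it gave a p, all larger in KRM, and 8.64% of all genes. Without KRM RAS replicate 1, edgeR called 17 of 34, all larger in KRM, and 7.40% of all genes. In each of these fits some genes, such as Cldn5, Myct1 and Sox17, are near 0 in KRM Sham and passed the filter mainly through the high libraries. The filter therefore in part sets the direction of the 27, the 14 and the 17 genes, and the median of 4.93. For Ly6a the difference was 5.09 ± 1.07 (SE, adjusted p = 0.0980) with all libraries and 5.59 ± 0.864 (SE, adjusted p = 0.0104) without that replicate.
Against CD11cloMϕ, 0 of 34 passed in edgeR and 0.245% of all genes did. At an unadjusted p under 0.05 only Ly6a and She, an adapter protein, differed, against 23.7% of all genes tested. The median difference was 0.82, but -0.06 without CD11cloMϕ Sham replicate 3, 0.26 without KRM RAS replicate 2, 1.59 without CD11cloMϕ RAS replicate 4 and 2.77 without CD11cloMϕ RAS replicates 3 and 4. In that last fit 10 of 34 had an unadjusted p under 0.05, and the share over all genes was not counted. DESeq2 called Ly6a alone, with 10.2% of all genes called.

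Sham kidneys allow the populations to be compared without stenosis. KRM against CD11chiMϕ gave 2 genes of 14 tested, both lower in KRM, with 5.13% of all genes called. Cd34 had 3.43, 3.49, 1.56 and 4.25 CPM in KRM and 16.8, 9.79 and 18.1 CPM in CD11chiMϕ, a log2 fold change of -2.26 ± 0.406 (SE, edgeR adjusted p = 0.0249). Vwf had 2.48, 2.36, 2.86 and 4.25 CPM in KRM and 10.4, 7.79 and 10.4 CPM in CD11chiMϕ, a log2 fold change of -1.69 ± 0.314 (SE, edgeR adjusted p = 0.0274). The groups did not overlap for either gene. Same-numbered Sham libraries deviated together, and when the fit included a replicate block 0 of the 14 passed (0.719% of all genes). The adjusted p was then 0.133 for Cd34 and 0.118 for Vwf in edgeR. Without CD11chiMϕ Sham replicate 3, the library with the high endothelial and tubular sums, 5 genes passed (13.6% of all genes). They were Cd34 and Vwf, lower in KRM, and Cd93, Tspan7 and Eng, higher in KRM. Without CD11chiMϕ Sham replicate 1, or KRM Sham replicate 1, 2 or 4, 0 passed in edgeR, with 1.27 to 1.5% of all genes called.

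KRM against CD11cloMϕ in Sham kidneys gave 3 genes of 14 tested, with 41.9% of all genes called. Eng had 47.7, 48.6, 38.3 and 47.9 CPM in KRM and 11.4, 15.3 and 20.5 CPM in CD11cloMϕ, a log2 fold change of 1.57 ± 0.201 (SE, edgeR adjusted p = 4.92e-04). Calcrl had 26.1, 39.1, 40.8 and 36.2 CPM in KRM and 13.5, 16.3 and 9.90 CPM in CD11cloMϕ, a log2 fold change of 1.44 ± 0.246 (SE, edgeR adjusted p = 0.00220). Both receptors were higher in every KRM library than in any CD11cloMϕ library, and both passed in all 18 alternative settings of this comparison. She (chromosome 3, 89831370 to 89858834, plus strand) went the other way, with 0.710, 0.925, 0.502 and 0.405 CPM in KRM and 2.26, 3.64 and 2.16 CPM in CD11cloMϕ, a log2 fold change of -2.06 ± 0.481 (SE, edgeR adjusted p = 0.00971). In the fit with a replicate block 34.5% of all genes passed and so did 3 of the 14, Eng, Calcrl and Notch4 (log2 fold change 2.35 ± 0.744, SE, edgeR adjusted p = 0.0484). She then had an adjusted p of 0.0663, and it also missed the threshold without CD11cloMϕ Sham replicate 2 (0.0596) and in 1 fit over the 6 groups (0.0805).
Per kilobase of exon, the mean level in KRM Sham was 23.6 CPM for Ly6a, 15.6 for Cd93, 11.3 for Eng and 7.29 for Calcrl, and 0.770 for the next gene, Plvap. In KRM RAS the order was Ly6a at 481 CPM per kilobase, Plvap at 20.5, Cd93 at 15 and Eng at 12.3. The means of Ly6a and Plvap there span libraries that include replicate 1 at 77.0 and 2.08 CPM before division by length.

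In stenotic kidneys KRM against CD11chiMϕ gave 4 genes of 31 tested, with 9.23% of all genes called. Ly6a, Tspan7 and Eng were higher in KRM and Vwf was lower. Eng had 44.9, 52.4 and 52.1 CPM in KRM and 26.6, 19.1, 25.6 and 29.5 CPM in CD11chiMϕ, a log2 fold change of 0.95 ± 0.199 (SE, edgeR adjusted p = 0.0345). Vwf had 2.87, 1.84 and 3.19 CPM in KRM and 13.4, 21.2, 14.9 and 16.8 CPM in CD11chiMϕ, a log2 fold change of -2.69 ± 0.375 (SE, edgeR adjusted p = 0.0166). The KRM and CD11chiMϕ libraries were separate for both genes, KRM RAS replicate 1 included. Ly6a and Tspan7 had log2 fold changes of 2.96 ± 0.716 and 2.97 ± 0.626 (SE, edgeR adjusted p = 0.0436 and 0.0354), but Ly6a was at 77.0 CPM in KRM RAS replicate 1, inside the CD11chiMϕ range of 52.2 to 107 CPM. Without KRM RAS replicate 1, 19 of 34 genes passed and 19.6% of all genes did. Myct1, Sox17 and Sox18 among them entered that fit only through the 2 high KRM libraries, which sets their direction. Without KRM RAS replicate 2 or 3, or CD11chiMϕ RAS replicate 3 or 4, 0 passed in edgeR (0.103 to 0.381% of all genes), and without CD11chiMϕ RAS replicate 2 only Vwf did (1.56%).
KRM against CD11cloMϕ in stenotic kidneys gave 0 of 34 in edgeR, with 9.17% of all genes called. At an unadjusted p under 0.05, Ly6a (log2 fold change 3.08 ± 0.793, SE, adjusted p = 0.0518) and Tspan7 (2.99 ± 1.02, SE, adjusted p = 0.0937) were higher in KRM, against 32.9% of all genes tested. DESeq2 called the same 2, and 24.4% of all genes.

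The remaining levels of the genes described above come from CD11chiMϕ and CD11cloMϕ. Plvap had 4.64, 1.58 and 20 CPM in CD11chiMϕ Sham and 0.759, 5.10, 19.4 and 18.8 CPM in RAS. Esam had 0.302, 0.632 and 15.2 CPM in CD11chiMϕ Sham, 0, 3.15, 1.82 and 2.72 CPM in RAS, 0.411, 0 and 2.73 CPM in CD11cloMϕ Sham and 0, 2.13, 4.70 and 12.7 CPM in RAS. Podxl had 0.605, 0 and 19.9 CPM in CD11chiMϕ Sham and 1.23, 0.150, 4.56 and 3.67 CPM in RAS. For all 3 the highest CD11chiMϕ library was Sham replicate 3. Cd34 had 6.36, 8.26, 12.1 and 15.6 CPM in CD11chiMϕ RAS, 3.29, 4.70 and 8.65 CPM in CD11cloMϕ Sham and 2.74, 10.9, 7.94 and 21.1 CPM in RAS. Ly6a had 53.3, 40.3 and 272 CPM in CD11chiMϕ Sham, 69.1, 107, 60 and 52.2 CPM in RAS, 12.1, 17.3 and 148 CPM in CD11cloMϕ Sham and 26.3, 68.7, 102 and 74.6 CPM in RAS. Tspan7 had 1.01, 0.421 and 35.6 CPM in CD11chiMϕ Sham, 1.33, 0.901, 3.53 and 2.49 CPM in RAS, 0.616, 0 and 2.62 CPM in CD11cloMϕ Sham and 0, 2.37, 2.79 and 3.03 CPM in RAS. In both populations Sham replicate 3 had the most Ly6a. Eng had 24.3, 24.5 and 36.6 CPM in CD11chiMϕ Sham and 14, 18.4, 48.9 and 40 CPM in CD11cloMϕ RAS. Calcrl had 19.8, 34.7 and 11.3 CPM in CD11chiMϕ Sham and 19.6, 3.30, 15.5 and 20.6 CPM in RAS. Ehd3 had 0.103, 0 and 1.82 CPM in CD11cloMϕ Sham and 0, 0.947, 3.69 and 10.3 CPM in RAS. The 2 receptors thus stayed above 3 CPM in every library, and Ehd3 did not. She had 2.12, 1.16 and 2.31 CPM in CD11chiMϕ Sham, 1.61, 1.05, 0.114 and 1.07 CPM in RAS and 2.32, 2.13, 1.34 and 9.20 CPM in CD11cloMϕ RAS. Vwf had 1.03, 1.29 and 0 CPM in CD11cloMϕ Sham and 2.00, 2.61, 2.46 and 7.39 CPM in RAS. Igfbp3 had 5.44, 2.63 and 11 CPM in CD11chiMϕ Sham, 1.23, 5.25, 7.97 and 6.75 CPM in RAS, 0.205, 2.70 and 1.48 CPM in CD11cloMϕ Sham and 0, 7.93, 20.3 and 38.8 CPM in RAS. For all 3 the highest CD11cloMϕ library was RAS replicate 4.

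The comparisons with KRM RAS libraries can also be read from the second deposited table, which holds log2 values of quantile-normalised TPM for 28 of the 34 genes. For KRM RAS replicate 1 the tables differed. Cldn5 was at 0 CPM in the counts and at 6.61 in the log2 table, Emcn at 0 CPM and 6.19, and Egfl7 at 0.0989 CPM and 6.5. Cdh5 was at 0.0989 CPM and 4.15, above its log2 values of 1.62 and 1.59 in KRM RAS replicates 2 and 3. Eng and Calcrl, which are even across KRM in the counts, were at 2.40 and 1.90 in that column against 4.48 to 4.90 and 3.46 to 4.64 in the other 6 KRM columns. Plvap was at 0.59 there and at 5.93 and 5.63 in replicates 2 and 3. The counts of this library correlated best with the column of KRM Sham replicate 4 (r = 0.888), above its own (0.689). Which table holds the library that the label names was not tested, and the counts are used for all values above.

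**Figure D5:**
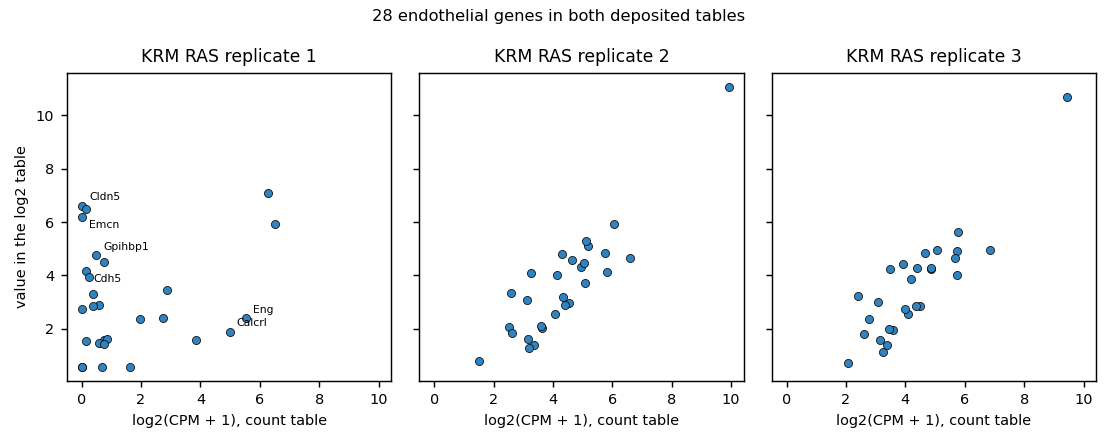
The 28 endothelial genes present in both tables, for the 3 KRM RAS libraries: log2(CPM + 1) from the counts (x axis) against the deposited log2 value (y axis), 1 point per gene. In replicates 2 and 3 the points rise together, while in replicate 1 Cldn5 and Emcn are at 0 in the counts and above 6 in the log2 table.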

How the data were processed

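RNA of sorted macrophages was amplified with a SMART-Seq v4 ultra-low-input kit and made into libraries with Nextera XT, neither of which marks strand. The authors aligned paired-end reads to mm10 with the OSA aligner, assigned them to Ensembl genes and deposited estimated counts per gene, of which 9.70 to 14.2% of values per library are not whole. A second deposited table holds log2 values of quantile-normalised TPM. The labels' processing notes also name DESeq2. The labels give 24 weeks of age and a sort time of 5 h, and the paper states fewer RAS libraries than the files hold.

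Counts were rounded and lines of 1 symbol summed (37620 lines, 34236 names). Library totals of 6891177 to 18592427 set the precision, and a count of 0 allows up to 3 counts. This covers counting error only. The main test was edgeR 4.0.16 in R 4.3.3: TMM, filterByExpr (minimum count 10, minimum total 15) and the two-sided quasi-likelihood F test on the groups compared, with Benjamini-Hochberg adjustment over all genes tested and a threshold of 0.05. There were 9 comparisons, 2 of them differences in response. The method was also run on simulated counts with an equal spread for all genes and no library standing apart. That simulation does not cover data in which a few libraries carry the signal. CPM values use TMM factors over all 21 libraries.

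The members, roles, marker lists and tests were chosen with earlier results of these data known, and no p is given for a sum or list. Values in every library are given for members with an adjusted p under 0.05 in a comparison or a group mean of at least 20 CPM, and the others by counts, ranges or examples. Emcn, Cdh5, Cldn5, Tek, Tie1, Ptprb, Sox7, Sox17, Sox18, Erg, Nos3, Rasip1, Egfl7, Esm1 and Notch4 fall outside that rule and were named after their values were seen. From other lists at most 4 genes are named, those with the highest mean CPM over the groups compared. Positions come from GENCODE vM21 on GRCm38 (mm10) and upstream sequence from RefSeq on GRCm38.p6. Sham libraries with the same number deviated together between populations (r = 0.20 to 0.58 across genes for the 3 pairs of each comparison), so the replicate block is reported for those. Alternatives were other size factors, filters, DESeq2 1.42.0, a single fit of all groups, the block, leaving out libraries, and limma 3.58.1 applied to the second table.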

Additional observations from a re-analysis of the deposited data

Results flagged for a closer look

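In the groups of 4 libraries, 42 values (14 quantities in 3 groups) were checked for a library far from the others. Chance marks about 1 in 20 such groups, and 4 were marked. Cd93 was at 225 CPM in CD11cloMϕ RAS replicate 3, against 69.0 to 92.3 CPM in the other libraries of the group. She was at 9.20 CPM in CD11cloMϕ RAS replicate 4, against 1.34 to 2.32 CPM. Vwf was at 7.39 CPM in the same library, against 2.00 to 2.61 CPM. Eng was at 38.3 CPM in KRM Sham replicate 3, against 47.7 to 48.6 CPM, and that library also had the largest total and a proximal tubule sum of 4586 CPM against 1060 to 1172 CPM in the other 3.

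In the log2 table, outside the main measurement, 6 genes were more than 1 log2 unit above the highest of all Sham columns in the column of KRM RAS replicate 1. Cdh5 was at 4.15 against at most 1.61, Cldn5 at 6.61 against 1.41, Gpihbp1 at 4.77 against 3.74, Nos3 at 2.87 against 0.93, Rasip1 at 3.31 against 2.02 and Igfbp3 at 4.52 against 2.85. The counts of the same library do not show these levels, and the reason was not tested.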

How the results depend on the processing

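Calls among the 34 genes moved with the libraries and the tool, and 16 went untested in KRM RAS against Sham, since their counts lay in too few libraries for the filter. Depth limits genes with few counts, such as Erg. The cause of each change was not tested unless a fit has fewer libraries or genes. Shares in brackets are of all genes tested in the same fit. In KRM RAS against Sham the count of 5 (9.70%) was 14 without a filter (7.71%), 11 with DESeq2 (24.6%), 12 by fold above 2 and unadjusted p (16.4%), 18 with limma applied to the second table (18.5%), 19 when its pseudocount was 0.1 (18.9%), 24 without its KRM RAS replicate 1 column (52.5%), a setting chosen after seeing the data, as was leaving out KRM RAS replicates 2 and 3 together, which gave 0 (1.30%). It ranged from 0 to 30 with 1 library left out (0.204 to 50.2%). A single fit of all groups also gave 5, but without Plvap, Tspan7 and Ehd3 (edgeR adjusted p = 0.0694, 0.352 and 0.0602). In KRM against CD11chiMϕ Sham the count of 2 (5.13%) was 1 without a filter (1.97%) and in the single fit (4.38%), 5 with DESeq2 (14.6%), 7 by fold and unadjusted p (12.5%), 0 with limma at pseudocounts 1 and 0.1 (2.77 and 2.72%), 6 without replicate 3 of both groups (12.1%) and 0 to 5 with 1 library left out (1.27 to 13.6%). In KRM against CD11cloMϕ Sham the count of 3 (41.9%) was 6 with DESeq2 (45.5%) and with limma (35.8%), 5 without replicate 3 of both groups (46.8%) and 3 to 6 with 1 library left out (32.8 to 47.1%). In KRM against CD11chiMϕ RAS the count of 4 (9.23%) was 11 with DESeq2 and by fold and unadjusted p (20.8% each), 17 without the KRM RAS replicate 1 column (16.3%), 0 with KRM RAS replicates 2 and 3 left out and 0 to 19 with 1 library left out (0.103 to 19.6%). Limma gave 5 (4.08%), Cldn5, Emcn, Mmrn2, Gpihbp1 and Nos3, of which 0 are among the 4, and 1 at pseudocount 0.1 (3.59%). In KRM against CD11cloMϕ RAS the count of 0 (9.17%) was 1 in the single fit (12.7%), with 10 counts required of each library (13.1%), scaling by total library size (11.4%), keeping all genes (5.22%) and without CD11cloMϕ RAS replicates 3 and 4 (8.40%, chosen after seeing the data), 2 with DESeq2 (24.4%) and by fold and unadjusted p (20.3%), 5 without the KRM RAS replicate 1 column (25%) and 0 to 2 with 1 library left out. In the difference of response from CD11chiMϕ the count of 0 was 14 with DESeq2 (8.64%), 26 by fold and unadjusted p (18.9%), 3 and 1 with limma at pseudocounts 1 and 0.1 (0.949 and 0.214%), 11 without the KRM RAS replicate 1 column (7.80%) and 0 to 17 with 1 library left out (up to 7.40%). From CD11cloMϕ it was 1 with DESeq2 (10.2%) and with limma at either pseudocount (10.4 and 9.01%), 2 by fold and unadjusted p (16.4%), 6 without the KRM RAS replicate 1 column (28%) and 0 to 2 with 1 library left out (up to 16.1%). CD11cloMϕ RAS against Sham gave 2 by fold and unadjusted p (4.37%), and CD11chiMϕ RAS against Sham gave 0 under all 17 alternatives (0 to 8.07%).

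The replicate block gave 0 calls in KRM RAS against Sham (0.327% of all genes), 0 in KRM against CD11chiMϕ Sham (0.719%) and 0 in KRM against CD11chiMϕ RAS (0.764%). KRM against CD11cloMϕ RAS had 4 with the block (Esam, Podxl, Cd34 and Ly6a), where 8.48% of all genes passed. KRM against CD11cloMϕ Sham kept 3 in number (34.5%), with Notch4 in place of She. The block left the other 4 comparisons at 0 (0 to 0.0144%). Between RAS and Sham, same-numbered libraries had r from -0.20 to 0.32. Between populations in RAS, r was 0.06 to 0.51, which overlaps the range in Sham. Whether same-numbered RAS libraries share an origin was not tested. Of 258 values of single called genes under alternatives, 157 stayed past the threshold in the same direction, 101 did not pass and 0 reversed. The count of all genes called in KRM RAS against Sham was 1247 as reported and 26 to 7071 with 1 library left out, 42 with the block and 3167 with DESeq2.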
